A study of Homo sapiens with 6 samples.

Results

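ATF4 and 9 genes of the integrated stress response and the unfolded protein response were followed in human breast cells treated with decitabine (DAC, 5-aza-2'-deoxycytidine), a nucleoside analog that traps and depletes DNA methyltransferases. The 10 genes were chosen by name: ATF4, DDIT3, DDIT4, TRIB3, ASNS, CHAC1, PPP1R15A, HSPA5, XBP1 and PSAT1. All 10 were found among the 23617 gene symbols of the MDA-MB-231 table, as 24 of its 43497 transcripts. Of the 1854 symbols in the HMLER table, 2 were members, DDIT3 and PPP1R15A, with 1 transcript each.

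MDA-MB-231 is a human breast cancer line and HMLER is a line of human mammary cells transformed in vitro. PolyA RNA was sequenced in 6 libraries, 1 untreated and 1 DAC-treated for MDA-MB-231 and 2 untreated and 2 DAC-treated for HMLER. Treated cells received 10 µM DAC every day and were harvested 72 h after the first dose, and control cells received none. The study's methods describe each RNA sample as a pool of several extractions. The untreated MDA-MB-231 library is titled with that line, although another label of it carries a different final digit. Values are FPKM, fragments scaled by transcript length and by library size, so levels of different genes are set side by side per length. How library size was set is not given in the sources used here. In MDA-MB-231 a ratio has no replicate check. The HMLER table gives 1 value per condition, merged over the 2 libraries, and holds only transcripts that were at least 2-fold higher after DAC, so the 8 members outside it were not analysed here in HMLER. No test was run on any gene for want of replicate values, and the authors' own p-values were not used.

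The 10 genes belong to linked stress pathways. When unfolded proteins gather in the endoplasmic reticulum (ER), or amino acids or haem run short, kinases phosphorylate the initiation factor eIF2, bulk translation slows and the mRNA of the transcription factor ATF4 is translated more. ATF4 then raises genes for amino acid synthesis and uptake, for feedback on eIF2 and, through DDIT3, for cell death, while the ER sensor ERN1 removes a short intron from XBP1 mRNA and ATF6 and XBP1 raise chaperones such as HSPA5. Because ATF4 is controlled largely at translation, its mRNA level is not a measure of its protein.

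Of the 10 promoters, 5 held a motif through which these pathways are known to act, and those stretches are shown here. Promoters came from RefSeq on GRCh38, with 1 window of 300 bases per symbol, from 250 bases before to 50 after the gene start, and all 10 members matched. The 250 bases before the start were searched on both strands. The ER stress response element, read as CCAAT and CCACG set 9 bases apart, was found in HSPA5 and XBP1 and in 22 of 27305 promoters overall (0.0806%). In capitals below is the element, which ends 48 bases before the HSPA5 start (chr9:125241366-125241434, minus strand) and 34 bases before the XBP1 start (chr22:28800578-28800646, minus strand).
HSPA5: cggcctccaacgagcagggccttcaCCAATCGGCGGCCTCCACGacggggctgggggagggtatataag
XBP1: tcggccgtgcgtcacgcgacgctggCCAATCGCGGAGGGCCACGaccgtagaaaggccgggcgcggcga

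The letters TGATGNAA, the core of the site that C/EBP and ATF proteins bind together, were found in ASNS and CHAC1 and in 870 promoters overall (3.19%). They lie 61 bases before the ASNS start (chr7:97872444-97872501, minus strand) and, on the opposite strand, 202 bases before the CHAC1 start (chr15:40953237-40953294, plus strand). The cyclic AMP response element TGACGTCA was found in PPP1R15A, 51 bases before its start (chr19:48872338-48872395, plus strand), and in 482 promoters overall (1.77%). The capitals mark these letters.
ASNS: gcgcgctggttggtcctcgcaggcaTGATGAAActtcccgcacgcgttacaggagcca
CHAC1: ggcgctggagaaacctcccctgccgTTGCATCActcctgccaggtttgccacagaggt
PPP1R15A: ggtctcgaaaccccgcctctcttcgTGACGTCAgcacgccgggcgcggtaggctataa

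ATF4, DDIT3, DDIT4, TRIB3 and PSAT1 held none of the 3 motifs, which says only that these letters are not in this window. All 10 promoters held more CpG, the dinucleotide that DNA methyltransferases modify, than the median promoter. The share of all promoters with fewer CpGs ran from 66.3% (for ATF4, CHAC1 and PPP1R15A) to 92.6% (for XBP1). They held 24 to 40 CpGs in 300 bases, with a median of 26, beside a median of 14 over 27305 promoters, and their observed over expected CpG ratios ran from 0.754 (CHAC1) to 1.14 (PSAT1), beside a median of 0.580. Methylation at these promoters was not analysed here.

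XBP1 carries a further short element, in its coding sequence. ERN1 removes 26 bases, which turns the unspliced message into one for the active factor. They are in capitals below as the annotation places them, on hg19 at chr22:29192116-29192141, minus strand, with 15 exonic bases on each side (chr22:29192101-29192156). The capitals and the bases after them open with the same letters. Removing a stretch set slightly further on would therefore give the same message, and the exact cut sites were not determined here.
XBP1: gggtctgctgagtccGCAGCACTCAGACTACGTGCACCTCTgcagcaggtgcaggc

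In MDA-MB-231 the 10 genes did not move together after DAC. ATF4, HSPA5 and XBP1 were about 2-fold lower, DDIT3 was 2.35-fold higher, and the other 6 lay between 0.741-fold (ASNS) and 1.48-fold (CHAC1). A symbol was called when its FPKM, summed over transcripts, was over 2-fold higher or lower after DAC and at least 1 FPKM in at least 1 library. All 10 members passed that filter, 1 was called higher (DDIT3), 1 was called lower (ATF4) and 8 were not called. Of all 12525 symbols past the filter, 10.8% were called higher and 4.82% lower, so 1 of 10 in each direction is near the background. The ratio was under 1 for 6 of the 10 members, where 56.9% of all symbols were under 1. In bulk RNA, fewer cells with a transcript and less of it per cell cannot be told apart.

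Levels of the 10 genes ran from 2.40 FPKM (CHAC1) to 160.5 FPKM (ATF4) in untreated MDA-MB-231 and from 3.57 FPKM (CHAC1) to 106.6 FPKM (PPP1R15A) after DAC. The untreated order was ATF4, HSPA5, PPP1R15A, PSAT1, XBP1, ASNS, TRIB3, DDIT3, DDIT4 and CHAC1. After DAC it was PPP1R15A, ATF4, HSPA5, PSAT1, DDIT3, XBP1, ASNS, TRIB3, DDIT4 and CHAC1. PPP1R15A moved ahead of ATF4 and HSPA5, and DDIT3 moved ahead of XBP1, ASNS and TRIB3. Neighbours in either order had overlapping bounds, the lower and upper limits that the deposited table gives each value, summed here over the transcripts of a symbol. The bounds of the 2 libraries also overlapped for each of the 10 genes. No share of all symbols with overlapping bounds was computed, so this count is not read as a trait of these genes.

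**Figure D1:**
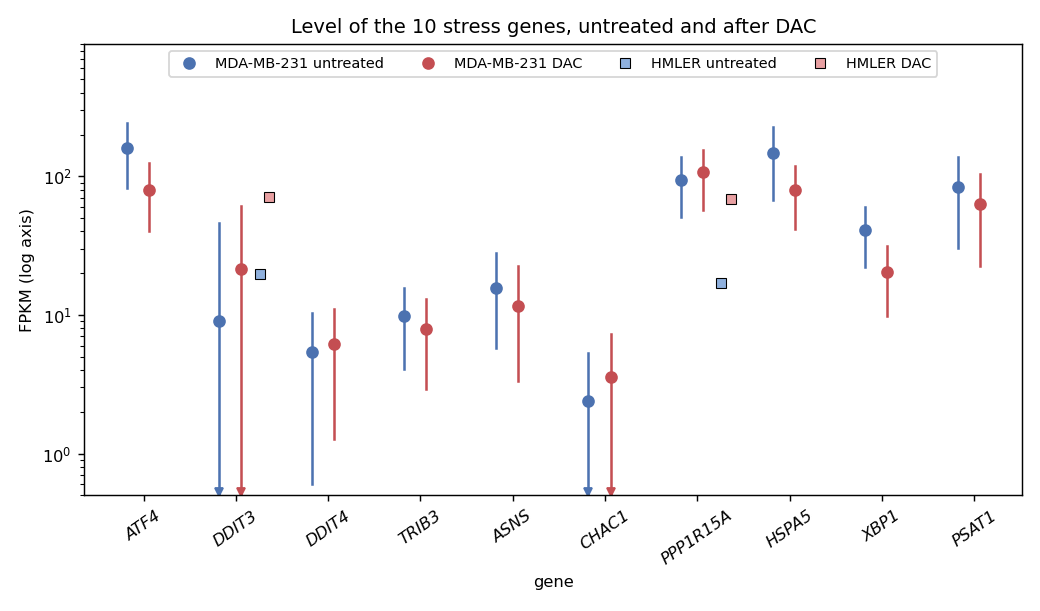
FPKM on a log axis of the 10 stress genes, with transcripts summed. Circles are single MDA-MB-231 libraries, blue untreated and red DAC-treated, with lines for the deposited bounds and a triangle where the lower bound is 0, and squares are the merged HMLER values. In MDA-MB-231, ATF4, HSPA5 and XBP1 sit lower after DAC, at 80.3, 80.1 and 20.5 FPKM, and DDIT3 sits higher. HMLER squares rise by selection, as only transcripts at least 2-fold higher were listed.

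ATF4, the transcription factor at the head of the response (chr22:39915700-39918688, plus strand, hg19), was at 160.5 FPKM in the untreated library and 80.3 FPKM in the DAC-treated library. The ratio of 0.49996 lay just past the 2-fold threshold. Neither value lay inside the other's bounds, which were 82.7 to 244 FPKM untreated and 40.3 to 124 FPKM after DAC. On the log2(FPKM + 1) scale the difference was -0.99, and 96.6% of the 12525 symbols had a higher one. Nearly all of the level came from transcript NM_182810, of 1420 bases, at 155.1 FPKM untreated and 75.7 FPKM after DAC. The longer NM_001675, of 2022 bases, was at 5.45 FPKM and 4.60 FPKM. Its share of the sum was 3.40% untreated and 5.73% after DAC, so the lower level of ATF4 was a lower level of the main transcript.

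XBP1, the factor that ERN1 splices (chr22:29190543-29196585, minus strand), was at 41.0 FPKM untreated and 20.5 FPKM after DAC. Its ratio of 0.50017 lay just short of the threshold, and the different calls of ATF4 and XBP1 rest on the fourth digit of their ratios. Neither value lay inside the other's bounds (22.1 to 60.1 FPKM untreated and 9.75 to 31.3 FPKM after DAC). The unspliced transcript NM_005080 held 41.0 FPKM and 20.5 FPKM, and the shorter NM_001079539, which lacks 26 bases, was given under 0.001 FPKM in each library. Only reads across those 26 bases separate the forms, and whether the alignment allowed so short a gap is not given in the sources used here. These values are therefore not read as levels of spliced XBP1.

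HSPA5, or BiP, the main ER chaperone of the HSP70 family (chr9:127997132-128003661, minus strand), was at 147.3 FPKM untreated and 80.1 FPKM after DAC from its single transcript. The ratio was 0.544, short of the threshold. Neither value lay inside the other's bounds, 67.1 to 227.5 FPKM and 41.8 to 118.3 FPKM. HSPA5 and XBP1, which share the ER stress response element printed above, had ratios of 0.544 and 0.50017. ATF4, whose promoter window held none of the motifs searched, had a ratio of 0.49996. A link between the element and these ratios was not tested.

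DDIT3, which encodes CHOP, the pro-apoptotic factor downstream of ATF4 (chr12:57910371-57915520, minus strand), was at 9.12 FPKM untreated and 21.4 FPKM after DAC. Its bounds, summed over 6 transcripts, were wide, 0 to 46.3 FPKM and 0 to 60.9 FPKM. Of these transcripts, NM_004083 held 6.51 FPKM untreated and 18.6 FPKM after DAC, a ratio of 2.85. Its own bounds were also wide, 0 to 24.5 FPKM untreated and 0 to 43.3 FPKM after DAC. The other 5 transcripts summed to 2.61 FPKM and 2.89 FPKM, none above 1.17 FPKM. As given, the higher level of DDIT3 was that of NM_004083, whose share of the sum was 71.4% untreated and 86.5% after DAC. Bounds that reach 0 leave the split among the transcripts uncertain. In HMLER the same transcript was at 19.7 FPKM untreated and 70.6 FPKM after DAC, a ratio of 3.59. Of the 2 members listed for HMLER, DDIT3 was the only one also over 2-fold higher in MDA-MB-231.

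DDIT3 shares 355 of its 1307 annotated exon bases with exons of MARS1 on the opposite strand (27.2%) and 58 with MBD6, also on that strand. It shares 105 (8.03%) with another annotated gene on its own strand, where counting by strand would not separate reads. MARS, the methionyl-tRNA synthetase, was at 60.9 FPKM untreated and 33.3 FPKM after DAC, the opposite direction to DDIT3. Whether counting used strand is not given in the sources used here, so reads from the shared bases cannot be told apart.

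**Figure D2:**
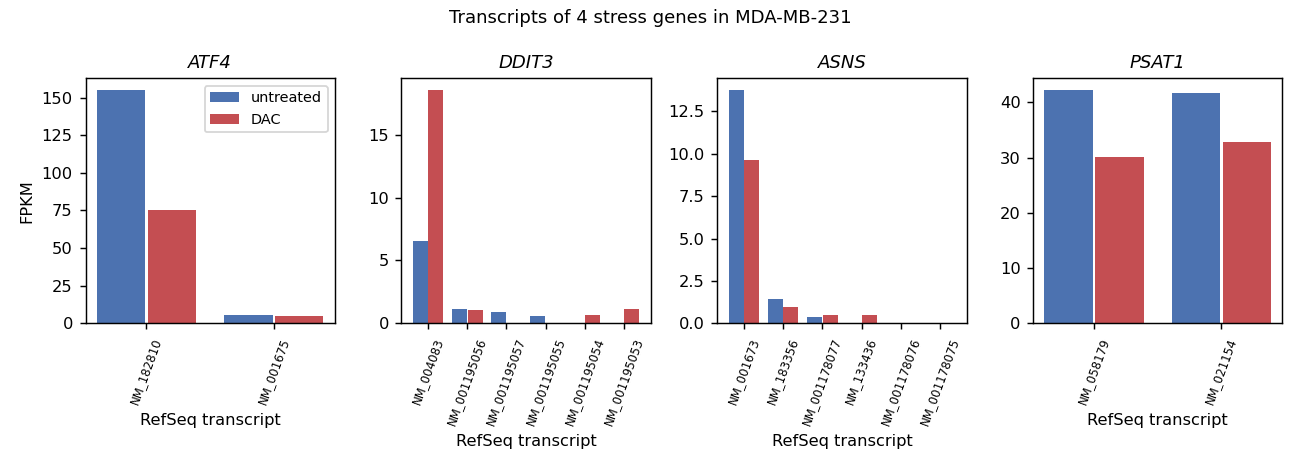
FPKM per RefSeq transcript for the 4 stress genes with several transcripts above the lowest levels, in the untreated (blue) and DAC-treated (red) MDA-MB-231 library. One transcript carries most of ATF4, DDIT3 and ASNS, with NM_182810 at 155.1 and 75.7 FPKM and NM_004083 at 6.51 and 18.6 FPKM, while both PSAT1 transcripts are at similar levels. Single libraries have no error bars.

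PPP1R15A, or GADD34, brings phosphatase 1 to eIF2 and so restores translation (chr19:49375469-49379316, plus strand). In MDA-MB-231 it was at 94.5 FPKM untreated and 106.6 FPKM after DAC, a ratio of 1.13, with each value inside the other's bounds. In HMLER it was at 16.9 FPKM untreated and 68.4 FPKM after DAC, a ratio of 4.05. The tables were normalised separately, so the levels are set side by side only. The difference between the lines was not tested, as neither gives a spread between libraries.

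TRIB3, a pseudokinase that ATF4 and DDIT3 raise and that feeds back on them (chr20:343479-378203, plus strand), was at 9.91 FPKM untreated and 7.94 FPKM after DAC, a ratio of 0.801. DDIT4, or REDD1, an inhibitor of mTORC1 signalling (chr10:74033678-74035794, plus strand), was at 5.44 FPKM untreated and 6.13 FPKM after DAC, a ratio of 1.13. CHAC1, which degrades glutathione (chr15:41245160-41248710, plus strand), was at 2.40 FPKM untreated and 3.57 FPKM after DAC, a ratio of 1.48. Its level came from NM_024111, and NM_001142776 was at or near 0 in both libraries. For TRIB3, DDIT4 and CHAC1 each value lay inside the other's bounds.

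The amino acid enzymes were both lower after DAC, short of 2-fold. ASNS, asparagine synthetase (chr7:97480989-97501854, minus strand), was at 15.6 FPKM untreated and 11.6 FPKM after DAC, a ratio of 0.741. Its main transcript NM_001673 went from 13.8 to 9.63 FPKM, a ratio of 0.700, and the other 5 summed to 1.84 FPKM and 1.93 FPKM. ASNS shares 2415 of its 4896 annotated exon bases with another annotated gene on the same strand. PSAT1, phosphoserine aminotransferase of serine synthesis (chr9:80912041-80945009, plus strand), was at 83.9 FPKM untreated and 62.9 FPKM after DAC, a ratio of 0.749. Its transcripts were nearly equal, NM_021154 at 41.7 and 32.8 FPKM and NM_058179 at 42.2 and 30.1 FPKM. ATF4, ASNS and PSAT1 have 4 annotated pseudogenes each and HSPA5 and XBP1 have 1 each, and how reads that match several places were counted is not given in the sources used here.

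The depth behind these values was read from the steps of low FPKM values, which were whole numbers of reads within 0.1 read in 99.9% of 751 untreated and 100% of 792 DAC values. They imply about 43100000 reads untreated and 42900000 after DAC, if each library was scaled by its own mapped reads. The reads of each gene were inferred from the same steps. ATF4 had about 8315 reads untreated and 4182 after DAC, which gives its ratio a 95% exact counting interval of 0.482 to 0.519. XBP1 had about 2798 and 1391 reads, with an interval of 0.469 to 0.534. Both intervals span the 2-fold threshold. HSPA5 had about 23703 and 12811 reads, with an interval of 0.532 to 0.555. DDIT3 had about 279 and 641 reads, with an interval of 2.04 to 2.72. CHAC1, the member with fewest reads, had about 137 and 202, with an interval of 1.19 to 1.86, and DDIT4 had about 355 and 398, with an interval of 0.974 to 1.30 that includes no difference. These intervals cover counting error only and compare the 2 libraries, not the conditions.

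The whole MDA-MB-231 table leaned the same way as 6 of the members. FPKM values summed to 589238 untreated and 480455 after DAC, and the median ratio of 11292 symbols at 1 FPKM or more in both libraries was 0.912, a log2 shift of -0.13. Divided by that median, the ratios became 0.548 for ATF4, 0.548 for XBP1, 0.596 for HSPA5 and 2.58 for DDIT3. No member changed direction, and ATF4 was then no longer called. The median log2(FPKM + 1) change of the 10 members was -0.35, beside -0.08 over all 12525 symbols.

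The lean was stronger among highly expressed genes. Of 6965 symbols at a mean of 10 FPKM or more, 68.1% had a ratio under 1, 2.86% were called higher and 4.44% lower. Of the 7 members at that level, 5 had a ratio under 1, 1 was called higher and 1 lower, a share under 1 near the background. Their median log2 change was -0.41, beside -0.18 for the 6965 symbols.

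**Figure D3:**
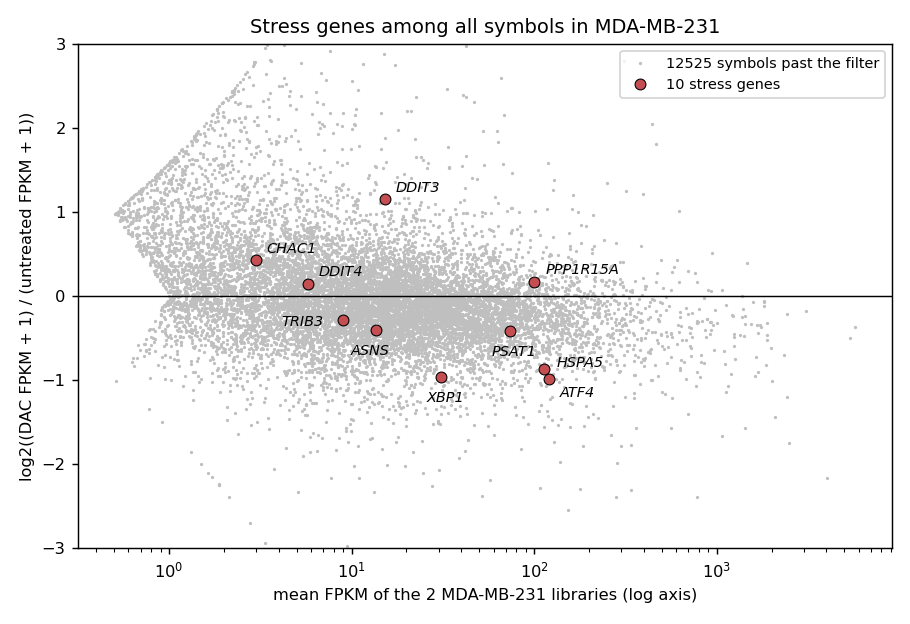
Change of each symbol in MDA-MB-231 on the log2(FPKM + 1) scale (y axis) against its mean FPKM over both libraries (log x axis). Grey points are the 12525 symbols past the filter, with 132 beyond ±3 outside the plot, and red points are the 10 stress genes. DDIT3 stands at 1.15 and ATF4, XBP1 and HSPA5 stand between -0.99 and -0.87, within the cloud of other symbols.

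Markers of cell types were read as a check of the label. All 8 basal and mesenchymal markers passed the filter, with a summed level of 6520 FPKM untreated and 3340 FPKM after DAC. Most of that sum was VIM (3066 and 1134 FPKM) and LGALS1 (2037 and 1235 FPKM), while FN1 was higher after DAC (39.8 and 111.3 FPKM) and CAV1 had a ratio of 0.976. The luminal markers CDH1, ESR1 and PGR were listed at 0 in the untreated library. Of 10 luminal epithelial markers 7 passed, summing to 350.0 and 344.9 FPKM, mostly KRT8 and KRT18. KRT19 in that list was at 0.518 and 13.5 FPKM and GATA3 had a ratio of 2.16. None of 6 leukocyte markers (summed 0.230 and 1.42 FPKM) and none of 3 adipocyte markers (0.0349 and 0.0615 FPKM) passed, 1 of 4 endothelial markers did (0.482 and 1.43 FPKM), and 1 of 6 fibroblast markers did (0.980 and 17.1 FPKM, of which COL1A1 was 0.853 and 15.6 FPKM). The part of the marker changes in the results above was not tested.

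Beyond the members, 10 lists with 147 other genes of these pathways were examined, and 138 passed the filter. Of these, 5 were called higher (3.62%) and 4 lower (2.90%), against 10.8% and 4.82% of all symbols, and 71.7% had a ratio under 1 against 56.9%. At a mean of 10 FPKM or more, 91 of 112 had a ratio under 1, beside 68.1% of all symbols at that level. The median log2 change of the 138 was -0.28. Among the genes called, only STC2 and FAM129A had bounds that did not overlap between the libraries.

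Stress transcription factors were split. Of 11 past the filter, 1 was called higher, 1 lower and 4 had a ratio under 1, with a median log2 change of 0.04. ATF3, a factor induced by ATF4 that represses or activates with its partner, was at 2.63 FPKM untreated and 8.04 FPKM after DAC in MDA-MB-231, a ratio of 3.06. In HMLER its 3 listed transcripts summed to 2.54 FPKM and 32.5 FPKM, a ratio of 12.8. ATF5, a relative of ATF4, was at 43.9 and 61.8 FPKM in MDA-MB-231, a ratio of 1.41, and its listed transcript was at 9.68 and 56.5 FPKM in HMLER, a ratio of 5.83. CREB3L2, an ER-anchored factor, was at 15.3 and 7.05 FPKM in MDA-MB-231, a ratio of 0.460.

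Secreted and feedback targets of ATF4 held the largest differences of the lists. Of 9 past the filter, 2 were called higher and 1 lower, and the median log2 change was 0.34. The 3 at a mean of 10 FPKM or more all had a ratio under 1, beside 68.1% of all symbols at that level. The genes of this list with a ratio over 1 were thus all under that level. STC2, a secreted glycoprotein, went from 0.0502 FPKM and about 11 reads to 4.72 FPKM and about 1034 reads, a ratio of 94.1, and its bounds did not overlap. SLC1A4, a neutral amino acid transporter, went from 0.720 to 2.49 FPKM, a ratio of 3.46, and was the 1 called gene of 9 amino acid transporters, whose median log2 change was -0.14. FAM129A, also called Niban, was at 19.9 FPKM untreated and 5.44 FPKM after DAC, a ratio of 0.273 with bounds that did not overlap. GDF15, a stress cytokine, was at 0.330 and 1.30 FPKM in MDA-MB-231 (about 14 and 54 reads), a ratio of 3.95, and at 52.7 and 276.7 FPKM in HMLER, a ratio of 5.25. STC2, SLC1A4 and GDF15 were under 1 FPKM in untreated MDA-MB-231 and passed the filter only through the DAC-treated library. With 1 FPKM asked of both libraries, the other pathway genes called higher fell from 5 to 2, without these genes. SLC3A2, the heavy chain of several amino acid exchangers, had a ratio of 1.16 in MDA-MB-231 over its 5 transcripts (159 and 184 FPKM). The 2 of them listed for HMLER were at 42.0 and 67.3 FPKM in MDA-MB-231 and at 19.3 and 55.0 FPKM in HMLER. Their HMLER ratio was 2.85, and they were listed only because they rose there.

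Enzymes and translation genes of the response were mostly lower, without passing 2-fold. None of 10 serine, glycine, proline and one-carbon enzymes was called, 7 had a ratio under 1, and the median log2 change was -0.21. At a mean of 10 FPKM or more 6 of 8 were under 1, near the 68.1% of all symbols at that level. None of the 13 genes in the list of aminoacyl-tRNA synthetases and the tRNA exporter XPOT was called, and all 13 had a ratio under 1, from 0.547 (MARS) to 0.865, with a median log2 change of -0.38. All 13 were at a mean of 10 FPKM or more, where 68.1% of symbols had a ratio under 1. Of 21 stress sensors and eIF2 factors none was called and 18 had a ratio under 1, with a median of -0.33. At a mean of 10 FPKM or more 15 of 17 were under 1, beside the same 68.1%. ERN1, the sensor that splices XBP1, was at 1.84 and 3.32 FPKM in MDA-MB-231 (ratio 1.80), with overlapping bounds. In HMLER it was listed at 1.95 and 4.72 FPKM (ratio 2.42). Only transcripts at least 2-fold higher are listed there, so the shared direction is not read as agreement.

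Of 24 ER chaperones and folding enzymes, 1 was called higher, 1 lower and 18 had a ratio under 1, with a median log2 change of -0.31. TXNDC5, a disulfide isomerase, was at 201 FPKM untreated and 68.9 FPKM after DAC, a ratio of 0.343. FKBP11, a prolyl isomerase, was at 3.55 and 11.7 FPKM (about 86 and 254 reads), a ratio of 3.29. Its bounds were 0 to 12.4 FPKM untreated and 0 to 31.6 FPKM after DAC. ERO1LB, an ER oxidase, was at 1.998 and 2.41 FPKM in MDA-MB-231 and 0.768 and 1.59 FPKM in HMLER. Of 15 genes of ER-associated degradation 9 had a ratio under 1, and of 16 genes of ER translocation and transport 12 did, with medians of -0.05 and -0.16 and no call in either list. At a mean of 10 FPKM or more, the counts under 1 were 18 of 21 for chaperones and folding enzymes, 8 of 12 for degradation and 11 of 15 for transport, the last 2 near the 68.1% of all symbols at that level. Outside the ER, 10 of 12 cytosolic heat shock genes passed the filter, each at a mean of 10 FPKM or more, where 68.1% of symbols had a ratio under 1. All 10 had a ratio under 1, with a median of -0.70. The other 2, near-identical copies whose reads may be split or dropped, stayed under 1 FPKM, HSPA1A at 0 and 0.244 FPKM and HSPA1B at 0.0607 and 0.143 FPKM. HSPA8, the constitutive HSP70, was the 1 called lower at 1572 and 751 FPKM, a ratio of 0.478.

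**Figure D4:**
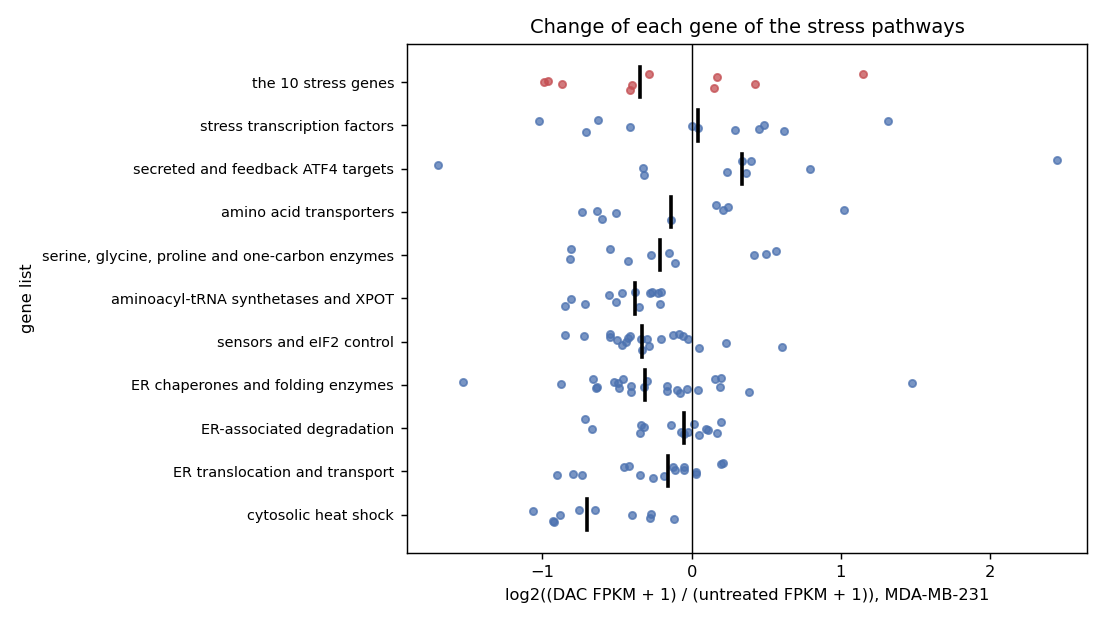
Change of single genes in MDA-MB-231 on the log2(FPKM + 1) scale, for the 10 stress genes (red) and the genes past the filter of each list (blue), with a black line at each median and a random vertical offset. The median is -0.70 for cytosolic heat shock and 0.34 for secreted and feedback targets, and all 13 points of the aminoacyl-tRNA synthetase list lie below 0.

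The HMLER table listed 2 of the 10 members and 10 of the 147 other pathway genes. Of the 12525 MDA-MB-231 symbols past the filter, 10.9% were listed. ATF3, DDIT3 and GDF15 were over 2-fold higher in both lines, on summed transcripts in MDA-MB-231. The share of all symbols listed for HMLER that were also over 2-fold higher in MDA-MB-231 was not computed, so this overlap has no background beside it. UGGT1, which checks the folding of glycoproteins, was listed through a noncoding transcript at 3.74 FPKM untreated and 8.82 FPKM after DAC in HMLER, and that transcript was at 7.84 and 5.23 FPKM in MDA-MB-231. SEC31A, a coat protein of ER export vesicles, was listed at 4.06 and 11.3 FPKM in HMLER. Its listed transcript was at 4.73 and 8.40 FPKM in MDA-MB-231, while the gene as a whole was at 37.7 and 31.4 FPKM.

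**Figure D5:**
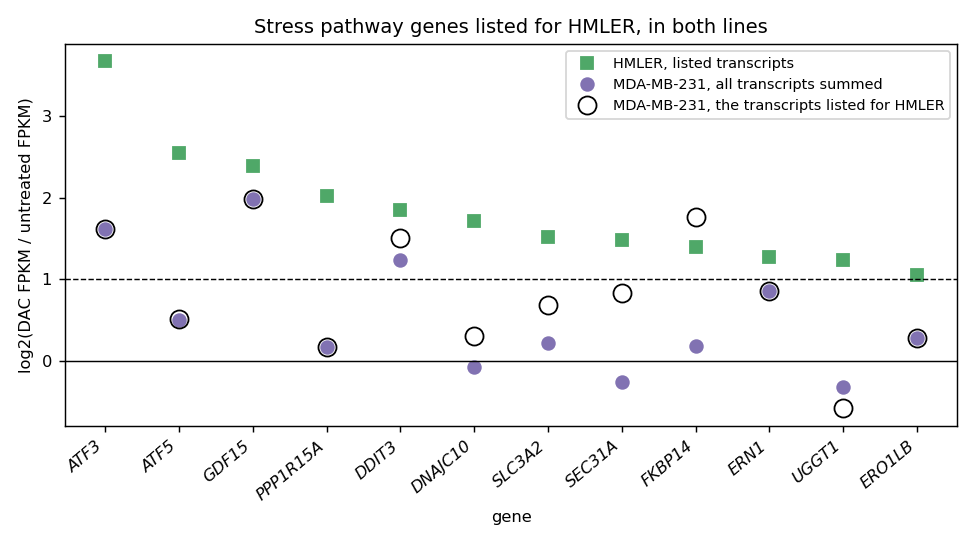
The log2 ratio of DAC over untreated FPKM for the 12 stress pathway genes listed for HMLER. Green squares are the listed transcripts in HMLER, filled circles all transcripts summed in MDA-MB-231 and open circles the listed transcripts in MDA-MB-231, with a dashed line at 2-fold. HMLER points all lie above that line because the table holds nothing lower, and PPP1R15A has a ratio of 4.05 in HMLER and 1.13 in MDA-MB-231.

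The symbols whose 4 values were most like those of each listed member were found by the Euclidean distance of log2(FPKM + 1), centred on each symbol's own mean, over the 4 values of 1361 other symbols. For DDIT3 they were AQP1 (distance 0.186), BAIAP2L2 (0.190) and IQCG (0.238). AQP1 had ratios of 80.4 in MDA-MB-231 and 4.89 in HMLER, BAIAP2L2 of 44.8 and 5.35, and IQCG of 3.96 and 4.82, and AQP1 and BAIAP2L2 were under 0.03 FPKM in untreated MDA-MB-231. For PPP1R15A they were ZNF114 (0.181), WTIP (0.227) and HIC1 (0.252), with ratios of 0.955, 1.31 and 1.05 in MDA-MB-231 and 5.69, 7.23 and 9.47 in HMLER. The distance ignores the level, which was lower for all 6 than for the member they resemble in each of the 4 values.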

How the data were processed

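The authors aligned reads to hg19 with TopHat2 and obtained the deposited FPKM values per RefSeq transcript with Cuffdiff, per the labels and the study's methods. Versions, library scaling and strand settings are not given in the sources used here. The tables also hold the authors' fold changes, p-values and q-values, which were not used. Rows of a symbol were summed, bounds included. Ratios were computed without a pseudocount and log2 changes on log2(FPKM + 1), which understates the change of low genes. The filter was 1 FPKM in at least 1 library and the call was 2-fold. With 1 library per condition in MDA-MB-231 and 1 merged value per condition in HMLER, no test across genes was possible.

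What 1 read is worth was taken from low values of single-transcript genes over 2000 bases, with 240 bases taken off each length. Positions and overlaps come from GENCODE on GRCh37, the assembly of hg19, and promoters from RefSeq on GRCh38. The members and gene lists were chosen with earlier results of these data known. All members were named, together with up to 4 genes of each list that passed the threshold or were listed for HMLER, by size of change, and the 3 symbols most alike to each member listed for HMLER. Calling steps were tested on simulated data. Alternatives were other filters, a pseudocount of 0.1, the largest transcript, division by the median ratio and bounds that do not overlap. A 1.5-fold threshold, and the same alternatives for the other pathway genes, were chosen after seeing the data. Software was pandas 2.3.3 and scipy 1.17.1 under Python 3.11.15, with matplotlib 3.10.9.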

Additional observations from a re-analysis of the deposited data

Results flagged for a closer look

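UGGT1 stood out because its listed transcript went in opposite directions in the 2 lines. The ratio of DAC over untreated was 2.36 in HMLER and 0.667 in MDA-MB-231 for that noncoding transcript, and 0.802 for the sum of the gene's transcripts in MDA-MB-231. The difference was not tested, since neither line gives a spread between libraries, and UGGT1 was in the HMLER table only because it rose there.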

How the results depend on the processing

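No paired analysis was possible because each condition has a single value in either line. ATF4 was the only member called lower, and 0 members were called lower after division by the median ratio, with 1 FPKM added before the ratio, or when bounds had to be apart. The last setting also left 0 called higher, and a 1.5-fold threshold gave 3 lower (ATF4, HSPA5 and XBP1). The members' median log2 change was -0.40 with a filter of 5 FPKM and -0.22 after division by the median ratio. No member reversed direction. Among other pathway genes, those called higher numbered 12 without a filter, 2 with a filter of 5 FPKM, 2 with 1 FPKM asked of both libraries, 1 with bounds apart and 10 at 1.5-fold. Those called lower numbered 2 after division by the median ratio, 1 with bounds apart and 32 at 1.5-fold, and their median was -0.22 without a filter and -0.15 after that division. Shares of all symbols were not computed at these other settings, so the counts there have no background beside them and are not read as results about these genes. With single libraries, none of these values has a replicate error.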
